A study of Mus musculus with 2 samples.

Results

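Pitx1 (ENSMUSG00000021506.6) is described here along its whole length in mouse embryonic fibroblasts (MEFs) with and without oestrogen receptor β. It is 1 of 14621 protein-coding genes with at least 5 cytosine positions read in both libraries, and it was chosen by its measured methylation differences, with stretches that were lower and stretches that were higher in the knock-out cells. The methylation values that chose the gene are therefore given as a description, with no test. The values of Pitx1 come from a window of 25 kb around the gene, which held 187 of the 826937 positions read in both libraries.

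The study compared wildtype (wt) MEFs with MEFs of genotype ESR2 -/- (βerko), both of strain C57BL/6, kept in the same medium and with no treatment named in the labels. Genomic DNA of 3 batches per cell type was pooled and sequenced as 1 library by reduced representation bisulfite sequencing (RRBS), so there are 2 libraries and no replicate, and how far cultures or animals of a genotype differ is unknown. In RRBS the DNA is cut by MspI at CCGG, short fragments are kept, and bisulfite turns unmethylated cytosine into uracil, so that the percent of reads that still carry cytosine is the methylation level of that position. The assay does not separate methylcytosine from hydroxymethylcytosine, and it does not show whether the receptor gene was lost.

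Pitx1 encodes a transcription factor with a paired-type homeodomain. It is known for giving the hindlimb its identity, together with its target Tbx4, and for its role in the pituitary, where it acts on hormone genes such as Pomc. Methylation of CpGs in a promoter commonly goes with a silent gene, whereas methylation of exons and introns is common in genes of any activity, and gene expression was not analysed here.

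In NCBIM37 (mm9) the gene lies on the minus strand at chr13:55926415-55937553. The transcript Pitx1-001 starts with exon 1 at chr13:55932133-55932786, continues with exon 2 at chr13:55929801-55930036 and ends with exon 3 at chr13:55926415-55927972, which holds most of the coding sequence and the 3′ UTR. A second transcript, Pitx1-002, has an alternative first exon at chr13:55937349-55937553, which begins 4767 bp upstream of exon 1. Sequences of the 5 stretches on which the description turns follow, read on the plus strand of NCBIM37, opposite to the direction of transcription. Capitals mark the CpGs with a value in both libraries on at least 1 strand.

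The 300 bases of coding exon 3 next to intron 2 are shown because they belong to the part of the gene that was lower in βerko MEFs; the last bases of the line are the end of the homeobox. They lie at chr13:55927673-55927972 and hold 22 CpGs, 13 of them with a value.
Exon 3, coding: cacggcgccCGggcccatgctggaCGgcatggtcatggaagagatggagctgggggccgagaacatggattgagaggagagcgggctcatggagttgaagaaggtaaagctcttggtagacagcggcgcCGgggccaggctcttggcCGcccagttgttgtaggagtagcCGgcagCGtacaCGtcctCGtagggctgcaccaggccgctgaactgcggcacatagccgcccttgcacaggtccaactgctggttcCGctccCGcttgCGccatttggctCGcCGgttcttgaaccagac

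The next sequences are the part of intron 1 that was higher in βerko MEFs. The longer one spans chr13:55930085-55930251 with 12 CpGs, 10 of them with a value, and the shorter one spans chr13:55930446-55930532 with 3 CpGs, 2 of them with a value.
Intron 1, near exon 2: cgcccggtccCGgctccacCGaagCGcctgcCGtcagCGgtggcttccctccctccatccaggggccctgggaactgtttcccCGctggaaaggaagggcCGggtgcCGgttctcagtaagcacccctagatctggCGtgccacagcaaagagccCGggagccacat
Intron 1, farther from exon 2: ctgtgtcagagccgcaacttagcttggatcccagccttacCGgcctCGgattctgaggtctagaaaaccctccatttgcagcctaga

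The coding part of exon 1 at chr13:55932133-55932301 is shown because most of its positions were near 0 % in wt cells. The bases upstream of the alternative exon at chr13:55938339-55938539 are shown as part of the loss stretch with the lowest mean level in βerko cells.
Exon 1, coding: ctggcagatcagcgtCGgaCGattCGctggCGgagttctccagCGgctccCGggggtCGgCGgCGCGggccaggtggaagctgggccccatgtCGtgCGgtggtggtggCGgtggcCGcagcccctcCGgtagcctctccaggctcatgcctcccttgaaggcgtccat
Upstream: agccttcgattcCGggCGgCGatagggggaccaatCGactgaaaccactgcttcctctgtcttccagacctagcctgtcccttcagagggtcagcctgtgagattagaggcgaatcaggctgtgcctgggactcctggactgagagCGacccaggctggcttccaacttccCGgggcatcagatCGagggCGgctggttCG

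The 187 positions of the window averaged 66.4 % methylation in wt and 32.6 % in βerko cells. Of these, 111 were at least 20 percentage points lower in βerko, which is 59.4 %, against 10.4 % of all positions of the series. Another 20 positions, or 10.7 %, were at least 20 percentage points higher, against 6.81 % of all positions, and 56 differed by less. Among the 119 positions above 80 % in wt, 97 (81.5 %) were lower by that amount, where the share over the series was 15.6 %. Among the 49 positions below 20 % in wt, 17 (34.7 %) were higher by that amount, where the share over the series was 3.58 %. The gene was selected on these differences, so the shares describe it and no more is read from them. All positions of the series together averaged 40.7 % in wt and 38.8 % in βerko.

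The positions are not independent of each other. They lie at 167 of the 677 CpGs of the window (24.7 %), and each is at most 36 bases from an MspI cut. Positions read from the same side of the same cut share their reads, and there were 65 such read ends.

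To describe where along the gene the differences sat, neighbouring positions were joined. A loss stretch is a run of at least 3 neighbouring positions that were each at least 20 percentage points lower in βerko, with gaps of at most 200 bp, and a gain stretch is the same for higher positions. There were 9 loss stretches with 105 positions and 2 gain stretches with 10 positions, and 72 positions lay in neither. Both gain stretches were in intron 1, between loss stretches in exon 3 and loss stretches upstream of exon 1, as the map along the gene shows.

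**Figure D1:**
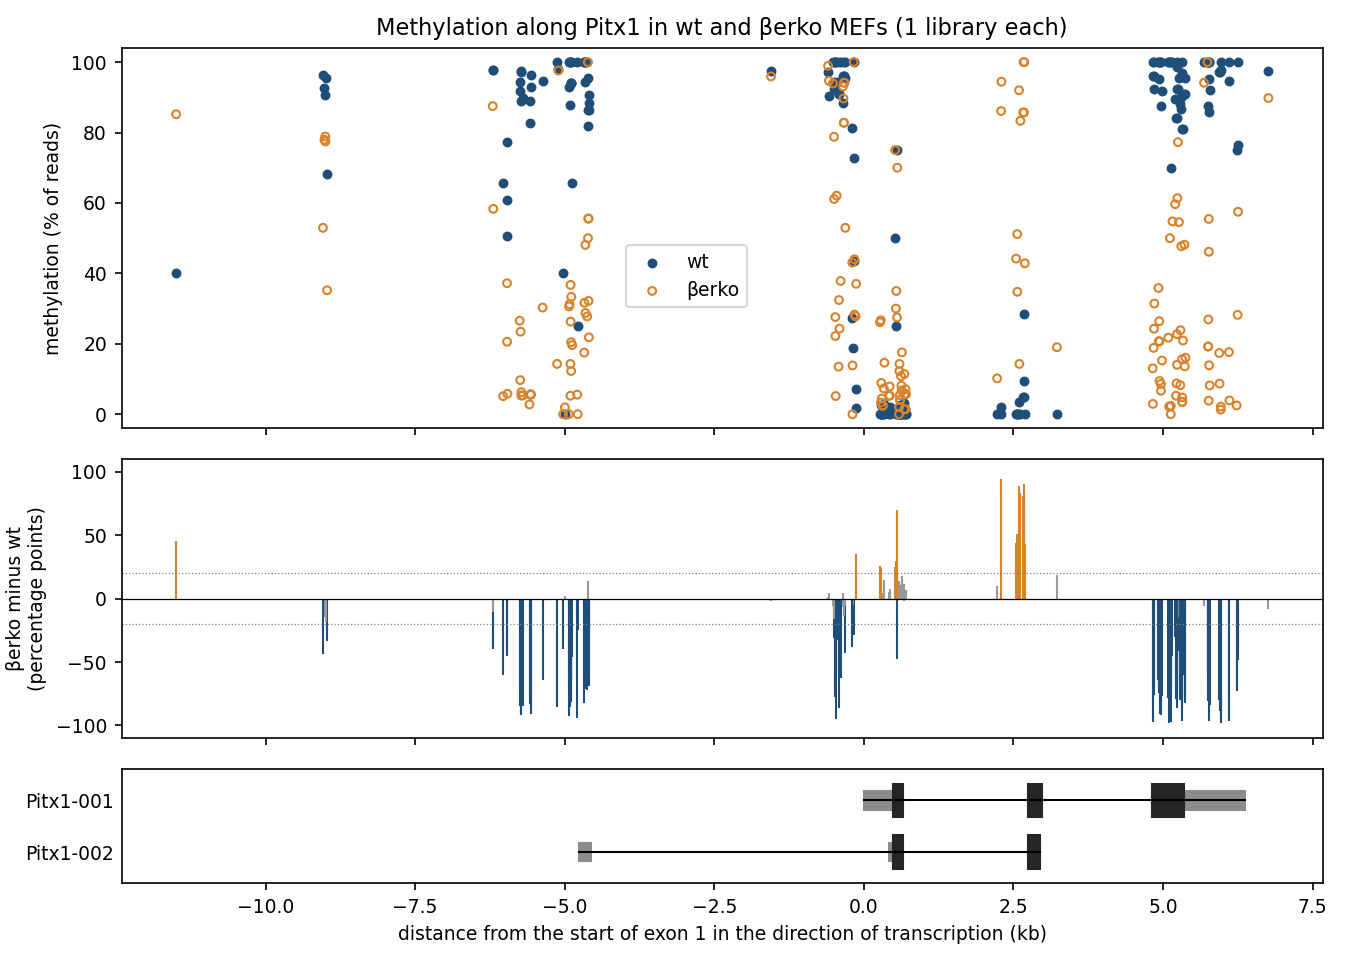
Methylation along Pitx1, with distance from the start of exon 1 in the direction of transcription in kb on the horizontal axis. The upper panel gives the percent methylation of each of the 187 positions in wt (filled) and βerko MEFs (open), the middle panel gives βerko minus wt in percentage points (blue at least 20 lower, orange at least 20 higher, grey between, dotted lines at 20 in either direction), and the lower panel gives the transcripts with coding parts in black; exon 3 and the upstream stretches lie below 0 in the middle panel, and the positions of intron 1 next to exon 2 above it.

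Exon 3 was nearly fully methylated in wt and lowly methylated in βerko MEFs. Its 57 positions, on 19 read ends, averaged 94.0 % ± 7.34 (SD over positions) in wt and 24.6 % ± 23.5 in βerko, and 54 of them were at least 20 percentage points lower. The coding part averaged 93.7 % in wt and 22.8 % in βerko over 35 positions, and the 3′ UTR 94.4 % and 27.5 % over 22. Between them, the ranges were 70 to 100 % in wt and 0 to 100 % in βerko. Of the 19 read ends, 18 had a mean at least 20 percentage points lower.

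A group of 3 loss stretches covered exon 3. The one in the 3′ UTR, at chr13:55926531-55927032, averaged 94.1 % in wt and 19.5 % in βerko over 17 positions. The one across the stop codon, at chr13:55927411-55927519, averaged 90.5 % and 21.7 % over 12 positions. The one in the coding sequence, at chr13:55927545-55927957, averaged 95.1 % and 21.5 % over 25 positions and includes the end of the homeobox. They were separated by the 3 positions of exon 3 that did not differ by 20 percentage points. These were 55927044 with 100 % in both libraries, 55927100 with 100 % in wt and 94.12 % in βerko, and 55927536 with 92.42 % and 77.27 %.

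For differentially methylated positions (DMPs) the deposited tables also give the reads. A DMP has more than 4 reads in both libraries, below 20 % methylation in one and above 80 % in the other. The window held 46 hypomethylated DMPs, 24.6 % of its positions against 0.700 % over the series, and 30 of them were in exon 3. Their depth ranged from 6 to 67 reads in wt (median 25) and from 26 to 110 in βerko (median 58). Another hypomethylated position in the deposited table, 55937577, had 4 reads in wt and was left out of the count. Intervals given for DMPs are exact Clopper-Pearson 95 % confidence intervals (CI); they cover counting error only, since PCR copies were not marked, and not the spread between cultures.

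Of the outermost DMPs of the 3′ UTR stretch, position 55926675 was methylated in 100 % of 19 reads in wt (CI 82.4 to 100) and in 3.92 % of 51 reads in βerko (CI 0.478 to 13.5). Position 55927032 was methylated in 100 % of 8 and in 19.23 % of 26 reads. The deepest DMP of this stretch, 55927005, had 92.19 % of 64 reads in wt (CI 82.7 to 97.4) and 8.18 % of 110 reads in βerko (CI 3.81 to 15). Of these 3 positions, 55927032 rested on the fewest wt reads and had the widest wt CI, 63.1 to 100.

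In the coding stretch, position 55927551 had 100 % of 18 reads in wt and 14.04 % of 57 in βerko. Position 55927957, 4829 bp downstream of the start of exon 1, had 96.15 % of 26 reads in wt (CI 80.4 to 99.9) and 13.04 % of 69 in βerko (CI 6.14 to 23.3). In the stretch across the stop codon, 55927411 had 90.91 % of 22 and 16.05 % of 81 reads, and 55927496 had 88.06 % of 67 and 8.26 % of 109. The plot of DMPs gives the intervals of the others; the DMP limits themselves keep the libraries apart, so nothing is read from the distance between them.

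**Figure D2:**
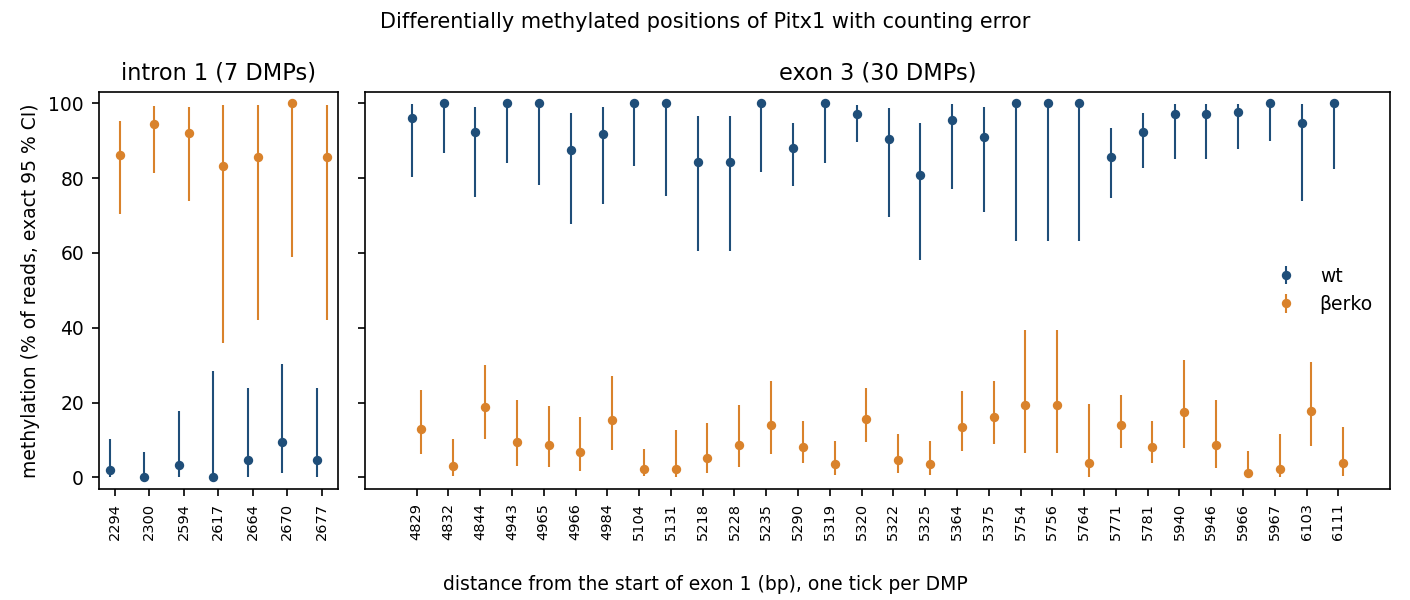
Percent methylation at the 7 hypermethylated DMPs of intron 1 (left) and the 30 hypomethylated DMPs of exon 3 (right) in wt (blue) and βerko MEFs (orange), with exact 95 % CI from the reads; each tick is a DMP named by its distance from the start of exon 1 in bp. The levels of the libraries change places between the panels, and the βerko intervals of 4 of the 7 intron 1 DMPs are wide because they rest on 6 or 7 reads.

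Intron 1 showed the opposite. Its 20 positions averaged 2.89 % in wt and 47.9 % in βerko MEFs, and 12 of them were at least 20 percentage points higher. These 12 were among the 14 positions within 600 bp of exon 2, which averaged 3.78 % in wt and 66.1 % in βerko. The other 6 positions, within 600 bp of exon 1, averaged 0.798 % and 5.48 %. Exon 2 itself had no position in both libraries, and the single position of intron 2, 55929558, had 0 % in wt and 19.05 % in βerko.

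The gain stretch nearest exon 2 began 59 bp from it, at chr13:55930095-55930169, and averaged 7.93 % in wt and 82.9 % in βerko over 6 positions. The next, at chr13:55930192-55930241, averaged 0.863 % and 55.5 % over 4 positions. Between them lay 55930186, with 0 % in wt and 14.29 % in βerko. All 7 hypermethylated DMPs of the window, 3.74 % of its positions against 0.237 % over the series, were in this part of intron 1. The deposited annotation places all 7 within Pitx1 and in a promoter region. It also places 2 hypomethylated DMPs upstream of exon 1, 55933208 and 55933257, in another promoter region.

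The DMPs of the first gain stretch rested on few reads in βerko. Position 55930109 was methylated in 4.76 % of 21 reads in wt (CI 0.120 to 23.8) and in 85.71 % of 7 reads in βerko (CI 42.1 to 99.6), and position 55930122 had the same values. Position 55930116 had 9.52 % of 21 reads (CI 1.17 to 30.4) and 100 % of 7 reads (CI 59.0 to 100). These 3 positions lie on the same read end, so they share their reads. Position 55930169, on another read end, had 0 % of 11 reads (CI 0 to 28.5) and 83.33 % of 6 reads (CI 35.9 to 99.6).

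The remaining 3 hypermethylated DMPs were deeper. Position 55930192, in the second gain stretch, had 3.45 % of 29 reads in wt (CI 0.0873 to 17.8) and 92 % of 25 reads in βerko (CI 74.0 to 99.0). Position 55930486 had 0 % of 52 reads (CI 0 to 6.85) and 94.44 % of 36 reads (CI 81.3 to 99.3), the largest gain of the window. Its neighbour 55930492, on the same read end, had 1.92 % of 52 reads (CI 0.0487 to 10.3) and 86.11 % of 36 reads (CI 70.5 to 95.3). These last positions belong to no stretch: the nearest position of a gain stretch is more than 200 bp away, and 55930558, the next position towards exon 1, had 0 % in wt and 10.19 % in βerko.

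Exon 1 was nearly unmethylated in wt and slightly methylated in βerko MEFs. Its 28 positions averaged 5.82 % in wt and 15.6 % in βerko, and 26 of them were higher in βerko. One read end stood apart: its 5 positions, 55932227 to 55932261, averaged 30.0 % and 47.5 %, its wt values were all multiples of 25 %, and its depth is unknown. Without it the other 23 positions averaged 0.559 % in wt and 8.70 % in βerko, with 22 higher and none lower. Over the series, the 354815 positions below 5 % in wt averaged 1.48 % in βerko with a median of 0 %. The 5′ UTR averaged 0.648 % and 9.56 % over 12 positions, with the highest βerko levels at 55932502 (26.67 %) and 55932516 (26.14 %). The coding part of exon 1 averaged 9.69 % and 20.2 % over 16, which include the 5 positions of the read end that stood apart. The other read ends of the coding part averaged 0.410 % in wt and 8.78 % in βerko, and 0.526 % and 6.53 %.

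**Figure D3:**
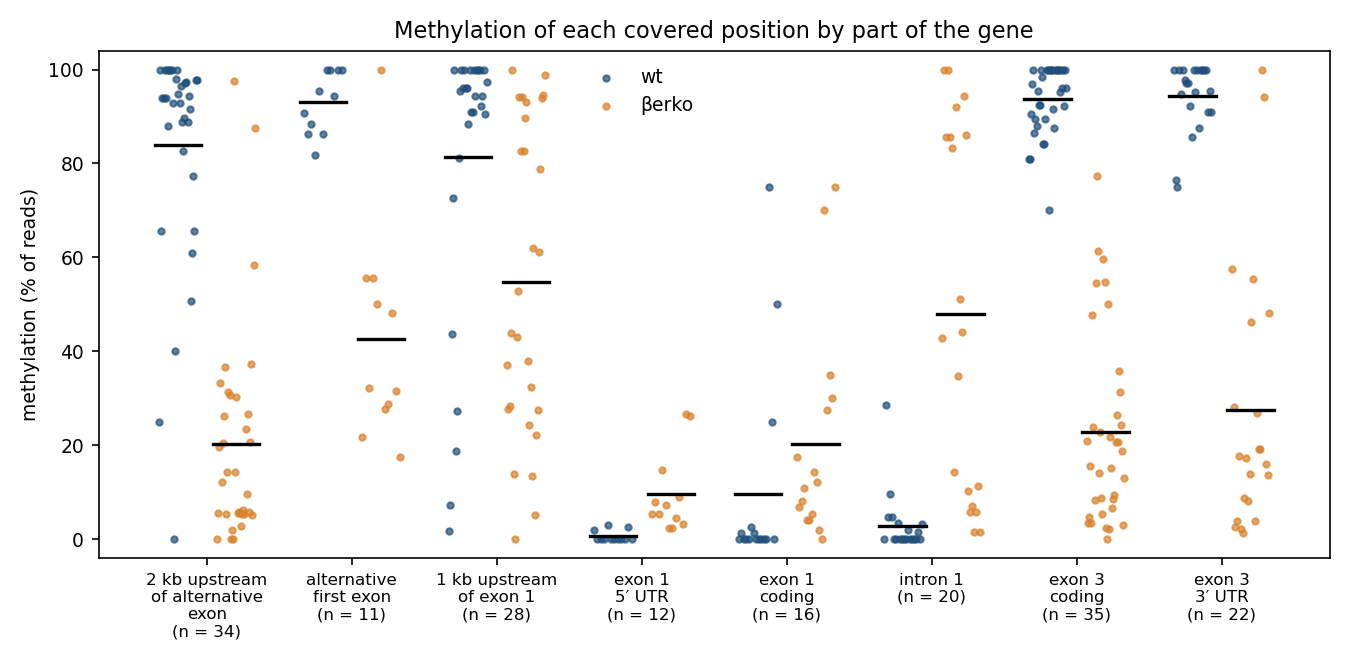
Percent methylation of every position with a value in both libraries in 8 parts of the Pitx1 locus, ordered in the direction of transcription, in wt (blue) and βerko MEFs (orange); black bars are means and n is the number of positions. The mean of the orange points lies below that of the blue ones in exon 3, the alternative first exon and the sequence upstream of it, and above it in intron 1 and exon 1, with single positions that differ from this, and the orange points spread over the whole scale within 1 kb upstream of exon 1.

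The sequence just upstream of exon 1 was mixed. From 500 bp upstream to 100 bp downstream of the start, 25 positions averaged 79.5 % in wt and 49.9 % in βerko MEFs, with 13 at least 20 percentage points lower, 2 at least 20 higher and 10 between. The mean difference was -29.6 percentage points, and -10.5 when 500 bp were added on each side. The loss stretch at chr13:55933174-55933283 averaged 96.5 % and 31.8 % over 9 positions. Its DMPs were 55933208, with 100 % of 11 reads in wt and 13.51 % of 37 in βerko, and 55933257, with 100 % of 17 and 5.17 % of 58. A smaller loss stretch at chr13:55932976-55933096 averaged 68.0 % and 32 % over 3 positions and held no DMP. Between these stretches, 6 positions from 55933109 to 55933135 stayed between 82.76 and 94.12 % in βerko, and the positions nearest the start, 55932915 and 55932925, had 1.82 % and 7.27 % in wt and 37.04 % and 27.78 % in βerko. Averages over this promoter therefore hide positions that differed in opposite directions.

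Farther upstream the levels were again lower in βerko MEFs. The 11 positions of the alternative first exon averaged 93.0 % in wt and 42.6 % in βerko, and 10 of them were at least 20 percentage points lower; the remaining one, 55937400, had 86.36 % and 100 %. The 34 positions within 2 kb upstream of that exon averaged 84.0 % and 20.3 %, with 31 at least 20 percentage points lower and 13 hypomethylated DMPs.

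The alternative exon and the bases before it held 4 loss stretches. The one at chr13:55937382-55937397 averaged 88.5 % in wt and 43.0 % in βerko over 5 positions, without a DMP. The one at chr13:55937410-55937718 averaged 91.5 % and 21.6 % over 18 positions, and its DMPs ran from 55937459, with 100 % of 35 and 17.5 % of 80 reads, to 55937718, with 92.86 % of 14 and 0 % of 64 reads (CI 0 to 5.60). The one at chr13:55938154-55938538 had the lowest mean of all stretches in βerko, 11.5 %, against 92.3 % in wt over 11 positions. Its DMPs ran from 55938351, with 92.86 % of 28 and 5.56 % of 36 reads, to 55938529, with 94.44 % of 36 and 9.68 % of 62. The outermost, at chr13:55938743-55938980, averaged 70.5 % and 25.4 % over 5 positions.

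The flanks of the window differed less on average. The 6 positions farther upstream averaged 80.5 % in wt and 67.9 % in βerko, with differences in both directions. Of these, 55941758 had 68.18 % and 35.21 %, 55941826 had 96.3 % and 52.94 %, and 55944281, the farthest, had 40 % and 85.19 %. Position 55934337, between exon 1 and the alternative exon, had 97.5 % and 95.92 %, and the single position downstream of the gene, 55926024, had 97.56 % and 89.8 %.

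Positions on the same read end differed more from each other in βerko than in wt MEFs. In the 54 read ends with at least 2 positions, the median range within an end was 5.88 percentage points in wt and 25.7 in βerko, and the range was larger in βerko in 44 of them. It exceeded 50 percentage points in 4 read ends in wt and in 12 in βerko. Of the 187 positions, 119 were above 80 % and 49 below 20 % in wt, whereas 74 lay between 20 and 80 % in βerko. Levels near 0 or 100 % leave little room for a range, and the part of this in the contrast was not tested. In the 3′ UTR, 55927022 had 3.85 % in βerko and 55927044, 22 bases away, had 100 %, both from 100 % in wt. Upstream of the alternative exon, the DMP 55937914 had 100 % of 51 reads in wt and 14.29 % of 42 in βerko, whereas 55937890 on the same end had 98.04 % and 97.62 %. In intron 1, 55930192 had 92 % in βerko and 55930221 had 34.78 %, from 3.45 % and 0 % in wt.

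The opposite strands of a CpG come from different reads. Of the 20 CpGs with both strands read, all 20 differed in the same direction on both strands, with 14 at least 20 percentage points lower on both and 1 at least 20 higher on both. The median gap between strands was 3.42 percentage points in wt and 9.86 in βerko, and the largest 30.0 and 23.4. These are the same pools of DNA and so no replicates.

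Several positions lay close to the DMP limits. Just inside were 55927030 and 55927032, at 19.23 % in βerko, and 55930169, at 83.33 %. Just outside were 55937679, with 100 % in wt and 20.45 % in βerko, and 55927844, with 100 % and 20.69 %. On the gain side, 55930104, with 28.57 % and 100 %, lay outside by its wt level. Farther from the limits, 55932227, with 0 % and 70 %, and 55930222, with 0 % and 51.16 %, lay outside by their βerko levels.

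Over the gene body of Pitx1, 146 positions averaged 61.5 % in wt and 33.7 % in βerko MEFs. This made it 1 of the 3.13 % of genes with at least 5 positions whose mean was at least 20 percentage points lower; 0.643 % were higher by as much. Among the 3738 genes with at least 50 positions, 6.21 % held a loss stretch and a gain stretch in their gene body. In Pitx1, 7 loss and 2 gain stretches lay within the gene body, 39.7 % of the positions were at least 50 percentage points lower and 6.85 % at least 50 higher. Across the 3738 genes, 15 had as large a share of lower positions and 71 as large a share of higher ones, each count including Pitx1, and no other gene had both. These limits are the shares of Pitx1 itself, so nothing is read from that. Rapgef5 fell just short, with 39.3 % lower and 9.84 % higher.

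The genes nearest to Pitx1 in these 2 shares, by Euclidean distance, were Rapgef5, with 39.3 % lower and 9.84 % higher (distance 3.01), Arhgef16, with 35.5 % and 4.84 % (4.69), Gramd2, with 42.4 % and 1.69 % (5.79), Tnxb, with 41.4 % and 0.714 % (6.37), and Runx3, with 34.7 % and 2.59 % (6.58). Rapgef5 held 5 loss stretches and 1 gain stretch, Arhgef16 held 2 and 1, and Tnxb 6 and 1, whereas Gramd2 and Runx3 had loss stretches only. This order depends on how the shares are defined, since 1 of these 5 genes was among the nearest 5 when 2000 bp were added on each side of the genes, and 1 when the limit was 20 percentage points.

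**Figure D4:**
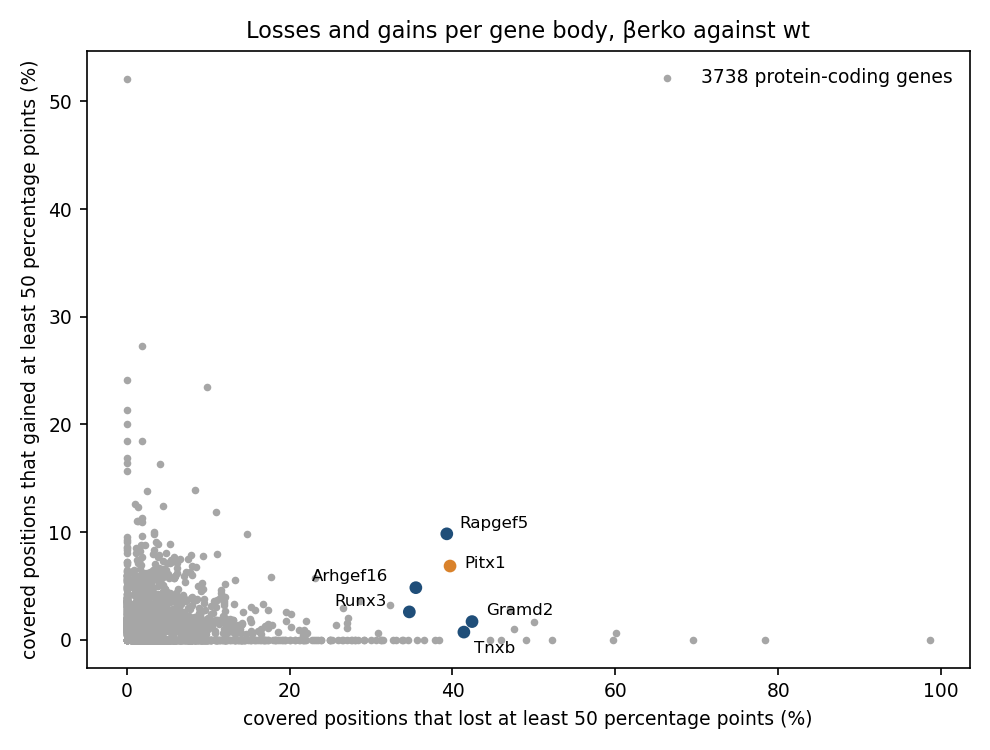
Percent of the positions in a gene body that were at least 50 percentage points lower (horizontal) and higher (vertical) in βerko than in wt MEFs, for 3738 protein-coding genes with at least 50 positions (grey), Pitx1 (orange) and the 5 genes nearest to it (blue). Pitx1 lies at 39.7 and 6.85 %, and Rapgef5, the gene nearest to it, at 39.3 and 9.84 %.

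A list of 33 genes of the paired-type family, of limb patterning and of the pituitary was set beside Pitx1; 25 had at least 5 positions. Their median difference was -3.39 percentage points, against -0.359 over all genes. Of the 25 genes, 3 (12 %) were at least 20 percentage points lower, against 3.13 % of all genes, and 1 (4 %) was higher by as much, against 0.643 %. Tbx4, the hindlimb target of Pitx1, was the one that was higher, with 33.2 % in wt and 79.7 % in βerko over 71 positions. The forelimb counterpart Tbx5 was lower, with 40.6 % and 15.7 % over 56 positions. The LIM-homeodomain gene Isl2 had 65.1 % and 29.2 % over 124 positions, and Hesx1, a transcriptional repressor needed for pituitary development, had 92.3 % and 41.8 % over only 5.

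Pitx3 and the pituitary target Pomc had smaller differences than Pitx1. Pitx3, a gene of lens and midbrain dopamine neurons, had 9.98 % in wt and 6.59 % in βerko over 59 positions. Pomc had 26.6 % and 29.1 % over 22 positions. Other genes of the list lay between these and the genes above. Among them, Fgf8 had 63.0 % and 44.9 % over 58 positions, and Otx2 had 47.3 % and 31.3 % over 38. In the other direction, Hoxc10 had 43.3 % and 53.5 % over 13 positions. These differences were below 20 percentage points, and whether they differ from that of Pitx1 beyond the spread between cultures could not be tested with 1 library per genotype.

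Within 500 kb of Pitx1 there were 27 other protein-coding genes, 23 of them with at least 5 positions. Their median difference was -1.70 percentage points. Cxcl14, which encodes a chemokine, was the only one at least 20 lower, with 62.0 % in wt and 34.5 % in βerko, and none was 20 higher; over all genes the shares were 3.13 % and 0.643 %. Neurog1, a proneural transcription factor gene, had 25 % and 8.46 %, and the other 21 differed by at most 9.13. Towards higher coordinates the nearest gene with at least 5 positions was H2afy, with 36.4 % and 34.8 %, and towards lower coordinates Pcbd2, with 56.6 % and 54.8 %.

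Sequence words were counted within 100 bases on either side of each CpG, on both strands. The E-box CAGCTG was near 33 of the 91 CpGs of the loss stretches (36.3 %), near 9 of the 27 CpGs of exon 1 (33.3 %) and near 11.0 % of the 29693 other CpGs read on chromosome 13. The oestrogen response element half-site GGTCA was near 35.2 % of the loss CpGs and 27.4 % of the others, the AP2 word GCCNNNGGC near 29.7 % and 22.2 %, and TAATCC, the word bound by bicoid-type homeodomains such as that of Pitx1, near 3.30 % and 3.88 %. None of these 4 words was near the 9 CpGs of the gain stretches. Neighbouring CpGs share most of the sequence counted, so these shares are descriptions of a few places.

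The cell type was checked by the promoters of 21 marker genes, of which 9 had a position. Those of the fibroblast genes Col1a1 (3 positions) and Fn1 (12 positions) were at or below 0.6 % in both libraries. In contrast, Col1a2 had 93.6 % in wt and 48.3 % in βerko over 5 positions and Vim 64.2 % and 58.5 % over 6. Promoters of other cell types ranged in wt from 23.7 % (Cdh1, 36 positions) to 91.7 % (Epcam, only 2 positions). In βerko they ranged from 13.5 % (Cdh1) to 94.6 % (Pecam1, only 2 positions). Promoter methylation does not measure expression, and the part of cell composition in the values of Pitx1 was not tested.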

How the data were processed

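RRBS data of MEFs of 2 genotypes were used, 1 library each. Per the submitters' processing notes, CASAVA 1.4 and mm9 were used; the version of the Genomatix mapping software is not given in the sources used here. The authors deposited percent methylation per cytosine position read in both libraries, without depth, and, for DMPs, read counts per library with an annotation by RegionMiner. Methylation levels of positions that are no DMP therefore have unknown depth. Every column of per-sample values was used. Positions were placed on NCBIM37 and GENCODE vM1 transcripts with Python 3.11.15, pandas 2.3.3 and NumPy 2.4.6. Exact intervals came from SciPy 1.17.1 and plots from matplotlib 3.10.9. Means over positions weight each position equally. The stretch finder was tested on simulated data. No test was made, because the gene was chosen by these values and there is 1 library per genotype. The members and lists were chosen with earlier results of these data known. Named were all stretches, the DMPs of the gain stretches and the outermost ones of the loss stretches, genes within 500 kb, the list of partners (1 of which is not reported here by name), and the 5 genes nearest in their shares; other positions and DMPs were singled out after their values were seen. Alternatives changed the difference, gap, number of positions, strand merging, interval, read minimum and DMP limits.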

Additional observations from a re-analysis of the deposited data

How the results depend on the processing

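The mean difference over the gene body lay between -31.1 and -25.5 percentage points under every alternative tried (-27.8 as reported). The promoter difference was -29.6, and -10.5 with 500 bp added on each side, which takes in exon 1. The number of loss stretches was 9, and 7 to 13 under the other settings. With a difference of at least 50 percentage points, 69 positions lay in loss stretches in place of 105, and 5 positions in 1 gain stretch in place of 10 in 2. A difference of 10 gave 17 positions in gain stretches and a gap of 500 bp gave 16. Requiring 5 positions left 1 gain stretch with 6 positions, and allowing 1 interruption joined both into 1. Limits of 10 and 90 % left 20 of 46 hypomethylated and 3 of 7 hypermethylated DMPs, and a minimum of 10 reads left 42 and 3. Of the 5 genes most like Pitx1, 1 remained with 2000 bp added on each side (Tnxb) and 1 with a limit of 20 percentage points (Rapgef5). No paired analysis was possible because there is 1 library per genotype. Depth limits the 4 hypermethylated DMPs with 6 or 7 reads in βerko MEFs. It also limits the hypomethylated DMPs with the fewest wt reads, such as 55937691 with 6. Depth at positions that are no DMP is unknown.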

Other observations

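Depth at the DMPs of Pitx1 differed between the libraries together with methylation. At 45 of the 46 hypomethylated DMPs, the less methylated library, βerko, had more reads, with medians of 25 reads in wt and 58 in βerko MEFs; over the series this was so at 83.9 % of 5787 hypomethylated DMPs, with medians of 21 and 47. At all 7 hypermethylated DMPs, the less methylated library, wt, had more reads, with medians of 21 and 7; over the series this was so at 56.9 % of 1960 hypermethylated DMPs, with medians of 33 and 31. The hypomethylated DMPs lie on 25 read ends and the hypermethylated ones on 4, so these counts are not of independent positions. The part of depth in the differences was not tested.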
